A study of Leucoraja erinaceus with 4 samples.

Results

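The assembled genes described here had their mean transcript length shifted by 1.5-fold or more between the ampullary receptor cells and at least 1 other tissue of an adult little skate (Leucoraja erinacea), a cartilaginous fish with an electric sense. They number 262 of the 186064 assembled genes measured, and of 5259 that could be compared. The groups were ampullary receptor cells (the electroreceptors), ampullary canals (the structural tubes that lead to them), body skin free of electroreceptors, and liver. Each tissue gave 1 poly(A)-selected library made with a stranded kit, the liver piece weighed 4 mg, and the series text gives 1 adult as the source of all 4, with no treatment named. How the receptor cells were isolated is not described in the sources used here. The tissue labels could not be checked and no marker gene could be looked up because the files do not pair the assembly identifiers with gene names. The reference table of 23250 skate genes shared 0 identifiers with the files. With 1 library per tissue no difference has a replicate check, and no p-value is given.

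One gene can make messenger RNAs of different length through the use of different promoters, splice sites or polyadenylation sites. Such forms can differ in the protein they encode or in how the message is translated and how long it lasts, and nervous and sensory tissues are known for extensive splicing of ion channel messages. Ampullary electroreceptors lie at the base of jelly-filled canals that open at the skin, and they convert small voltage changes into transmitter release through voltage-gated calcium channels and calcium-activated potassium channels. In a transcriptome assembled without a genome, however, a "transcript" of an assembled gene can also be a fragment or an allele. A length shift here is therefore a change in the estimated abundance of assembled sequences, and it was not tested whether a given shift is splicing. No sequences of these transcripts were used here.

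The members were chosen by the authors' deposited length values, which give for each assembled gene and library the mean length of its transcripts weighted by their estimated abundance. An assembled gene entered when it had 2 or more transcripts, 100 or more reads (rounded expected counts) in receptor cells and in at least 1 other library, and a ratio of the 2 lengths of 1.5 or more either way. The lengths and their ratios are thus a description of the choice and carry no test. Of the 19914 assembled genes with 2 or more transcripts, 14655 lacked the reads for any comparison, and the 262 members were 4.98% of the 5259 that had them. The libraries held 11071249 to 12303108 reads, and the members took 1.81% of them in receptor cells, against 1.01% in canals, 2.11% in skin and 1.39% in liver. Single members weigh heavily in these shares. Of the reads on members, c84708_g4 alone held 78912 of 247540 in skin and 25578 of 221564 in receptor cells. In liver c85744_g1 held 27108 of 154434. Of the 262 members, 135 had 100 reads in all 4 libraries, 76 in 3 and 51 in 2.

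The canal library stood apart from the other 3 in small differences between whole-number lengths. A mean length is a whole number when 1 transcript, or transcripts of equal length, takes the abundance. A length was counted as whole where its deposited decimals, given to 2 places, were both 0, and lengths as equal where all deposited digits were. Over 37 assembled genes with whole-number lengths and 100 reads in all 4 libraries, canals alone had a length different from a value common to the others in 12, liver alone in 1, and receptor cells or skin alone in 0. Between receptor cells and canals, 141 assembled genes had whole-number lengths in both and 34 of these differed, by a median of 15.0 bases, with 27 differing by 25 bases or fewer (a limit set after the values were seen). The same count was 4 of 219 against skin and 7 of 145 against liver, with 0 and 2 differing by 25 bases or fewer. Against canals, skin had 30 of 141 and liver 24 of 98. None of the receptor-cell differences of this kind reached the 1.5-fold rule. Their source, including whether the canal RNA came from the same animal as the series states, was not tested. Whether it bears on the larger shifts against canals was not tested either. Without the comparison with canals the set held 162 members in place of 262.

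Receptor cells and canals differed most often in number. Of 4565 assembled genes compared, 71 (1.56%) were longer in receptor cells than in canals and 72 (1.58%) were shorter. Against skin, 41 (0.94%) were longer in receptor cells and 50 (1.15%) were shorter, of 4362. Against liver, 53 (1.68%) were longer in receptor cells and 42 (1.33%) were shorter, of 3154. These shares are the rule's own background, so nothing is read from them. Shifts ran in both directions in each comparison, with 71 against 72 members for canals.

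**Figure D1:**
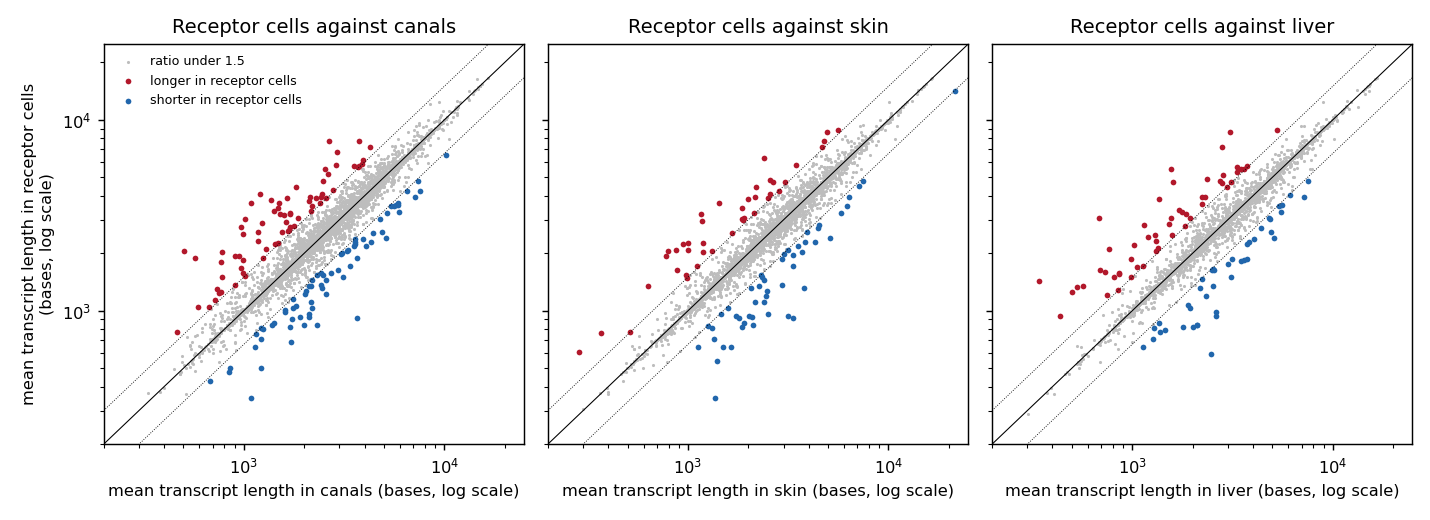
Mean transcript length in receptor cells (vertical, bases, log scale) against canals, skin and liver (horizontal, bases, log scale) for assembled genes with 2 or more transcripts and 100 or more reads in both libraries; each point is 1 assembled gene, the solid line is equality and the dotted lines are ratios of 1.5. Red points (71, 41 and 53) were longer in receptor cells and blue points (72, 50 and 42) shorter, and the grey points lie between the dotted lines.

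The median ratio of the shifted lengths was 1.72 against canals, 1.79 against skin and 1.78 against liver, and the largest were 4.06, 3.9 and 4.5. Ratios of 2 or more were reached by 40, 31 and 28 members, and ratios of 3 or more by 6, 3 and 4, in the same order of tissues. Those nearest to the limit had ratios of 1.502, 1.501 and 1.501 inside it and 1.497, 1.498 and 1.499 outside it, so the limit falls within a continuous run of ratios. In bases the shifts were large. The median difference was 1267.8 bases against canals, 1251.3 against skin and 1335.1 against liver, and the smallest was 250.2 bases. Over all assembled genes compared, the typical length hardly moved, with a median absolute log2 ratio of 0.0319 against canals, 0.0197 against skin and 0.02 against liver.

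Most shifts appeared in 1 comparison. Of the 262 members, 209 were shifted against 1 tissue, 39 against 2 and 14 against all 3. Those shifted in 1 comparison were 100 against canals alone, 49 against skin alone and 60 against liver alone. Receptor cells were longer in every shifted comparison of 147 members and shorter in every shifted comparison of 112, while 3 members were longer than in one tissue and shorter than in another. The 51 members comparable in 1 comparison could not be shifted in more.

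Among members with 100 reads in every library, the label of a receptor-cell shift held for few. The base for this count was 2749 assembled genes of several transcripts that had 100 reads in every library. There the receptor-cell length stood 1.5-fold or more apart from each of the other 3 in 13 (0.473%). Canals stood apart in 30 (1.09%), skin in 8 (0.291%) and liver in 25 (0.909%). All of these are members, since a library that stands apart from the rest stands apart from receptor cells. The set is therefore better described as shifts between receptor cells and another tissue than as receptor-cell shifts. Of the 135 members with 100 reads everywhere, 76 had 1 library apart, 9 split into pairs (2 with receptor cells and canals against skin and liver, 2 with receptor cells and skin against canals and liver, and 5 with receptor cells and liver against canals and skin), and 50 were graded. Without canals, receptor cells stood apart from skin and liver in 24 of 2917, skin from receptor cells and liver in 17, and liver from receptor cells and skin in 37.

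**Figure D2:**
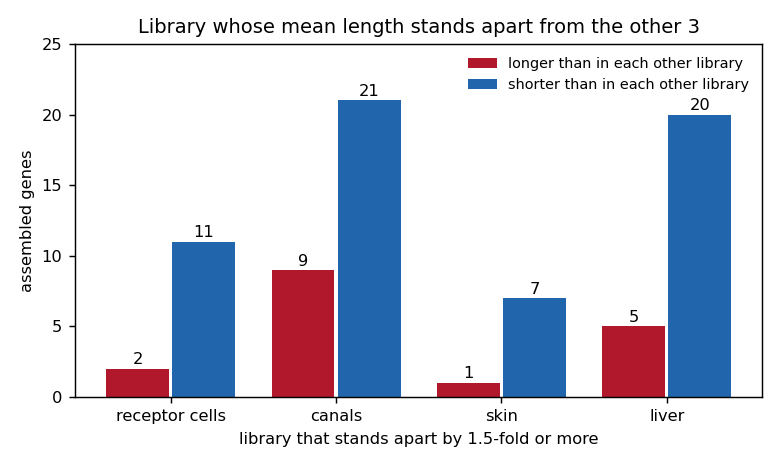
Number of assembled genes (vertical, from 0) whose mean length in 1 library (horizontal) was 1.5-fold or more above (red) or below (blue) that in each of the other 3, out of 2749 with 100 reads in all 4. Receptor cells were longer in 2 and shorter in 11, canals 9 and 21, skin 1 and 7, and liver 5 and 20.

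In every library the standing-apart length was more often the short one. Receptor cells were shorter than all others in 11 and longer in 2, canals 21 and 9, skin 7 and 1, and liver 20 and 5. In 11 of the 13 the receptor-cell library had the most reads of the 4 and in 0 the fewest, while over all 2749 it had the most in 48.5% and the fewest in 4.87%. Its median over the 13 was 659 reads, the same as over all 2749. The other libraries together had a median of 250 over the 13. Over all 2749 their medians were 494 in canals, 510 in skin and 263 in liver. Canals had the most reads in 9 of 30 (19.8% over all) and the fewest in 4 (13.4%). Skin had the most in 5 of 8 (25.3%) and the fewest in 1 (11.1%), and liver the most in 5 of 25 (6.44%) and the fewest in 13 (70.6%). The part of depth in the count was not tested.

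The 2 members longer in receptor cells than everywhere else were c87350_g1 and c95072_g1. Mean length of c87350_g1, with 7 transcripts, was 3924 bases in receptor cells, against 2432 in canals, 2154 in skin and 2231 in liver, from 1018, 405, 428 and 221 reads in that order. Receptor cells alone had the long mean, and the 3 other tissues lay close together. Mean length of c95072_g1, with 4 transcripts, was 7229 bases in receptor cells, against 4273 in canals, 4685 in skin and 2799 in liver, from 803, 356, 273 and 181 reads in that order. Here the other tissues also differed, by up to 1.674-fold, with liver the shortest.

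Among the 11 members shorter in receptor cells than everywhere else, c78690_g1 and c92372_g1 had the clearest separation. Mean length of c78690_g1, with 5 transcripts, was 847 bases in receptor cells, against 1995 in canals, 2098.00 in skin and 2098.00 in liver, from 424, 182, 334 and 271 reads in that order. Skin and liver gave the same whole-number length, as when 1 transcript takes the abundance, and canals lay near it. Given the shortest length in the files, 201 bases, at least 66.0% of the estimated receptor-cell abundance of c78690_g1 lay on transcripts shorter than 2098 bases. Mean length of c92372_g1, with 3 transcripts, was 2402 bases in receptor cells, against 5100 in canals, 5082 in skin and 5121.00 in liver, from 396, 218, 199 and 126 reads in that order. The 3 other tissues lay within 1.008-fold of each other. Over the 11, receptor-cell lengths ran from 644.4 to 4772 bases, the ratio to the nearest other tissue from 1.517 to 2.357, and receptor-cell reads from 299 to 2120. In 5 of the 11 the 3 other tissues lay within 1.1-fold of each other, and in all 11 within 1.344-fold.

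The deepest shifted members show the comparisons where the estimate of length rests on most reads. With 1000 or more reads in both libraries, 3 members were longer in receptor cells than in canals and 3 shorter. Mean length of c92002_g2 was 6166 bases in receptor cells, against 3936 in canals, 6341 in skin and 6738 in liver, from 1009, 2623, 2395 and 99 reads in that order. Canals had the short mean while the rest lay together, the liver value resting on 99 reads. Mean length of c92536_g1 was 5757 bases in receptor cells, against 3745 in canals, 4628 in skin and 5240 in liver, from 1283, 1817, 1071 and 504 reads in that order. Canals were again the shortest, with skin in between. In the other direction, mean length of c92341_g1 was 3593 bases in receptor cells, against 5712 in canals, 4066 in skin and 5555 in liver, from 2206, 1419, 1333 and 2928 reads in that order. Receptor cells had the shortest mean, skin lay in between but nearer to receptor cells, and canals and liver had the longer means. Thus c92341_g1 was also among the members shorter in receptor cells than in liver. Mean length of c93714_g1 was 6564 bases in receptor cells, against 10248.00 in canals, 4865 in skin and 5312 in liver, from 2375, 1712, 1606 and 873 reads in that order. The canal value was a whole number and receptor cells lay between canals and the other tissues.

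Against skin, 3 members with 1000 reads in both libraries were longer in receptor cells and 2 shorter. Mean length of c91765_g1 was 6306 bases in receptor cells, against 6436.00 in canals, 2404 in skin and 6391 in liver, from 1147, 581, 1090 and 691 reads in that order. Skin alone was short, by 2.62-fold against receptor cells. Mean length of c94127_g1, with 12 transcripts, was 2559 bases in receptor cells, against 2758 in canals, 1653 in skin and 3104 in liver, from 1519, 1008, 1773 and 718 reads in that order. Skin was again the shortest. Shorter in receptor cells than in skin was c90562_g5, whose mean length was 1308 bases in receptor cells, against 2441 in canals, 3774 in skin and 1117 in liver, from 3364, 146, 10666 and 551 reads in that order. Receptor cells resembled liver here, and no value was common to 3 tissues. Mean length of c94103_g2 was 823 bases in receptor cells, against 1694 in canals, 1867 in skin and 1793 in liver, from 2120, 159, 1115 and 414 reads in that order. This is 1 of the 11 in which receptor cells were shorter than every other tissue, and the deepest of them.

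Against liver, 3 members with 1000 reads in both libraries were longer in receptor cells and 3 shorter. Mean length of c93482_g7 was 2442 bases in receptor cells, against 2494 in canals, 2139 in skin and 1196 in liver, from 1861, 373, 435 and 2787 reads in that order. Liver alone was short. Mean length of c92661_g1 was 2326 bases in receptor cells, against 2312 in canals, 2366 in skin and 1312 in liver, from 3410, 3747, 3626 and 2417 reads in that order. Liver was again alone, with the other 3 nearly equal at more than 3000 reads each. In the other direction, mean length of c94850_g5 was 989 bases in receptor cells, against 968 in canals, 938 in skin and 2618 in liver, from 1127, 1649, 10448 and 16973 reads in that order. Liver alone had the long mean, and it also had the most reads of c94850_g5.

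**Figure D3:**
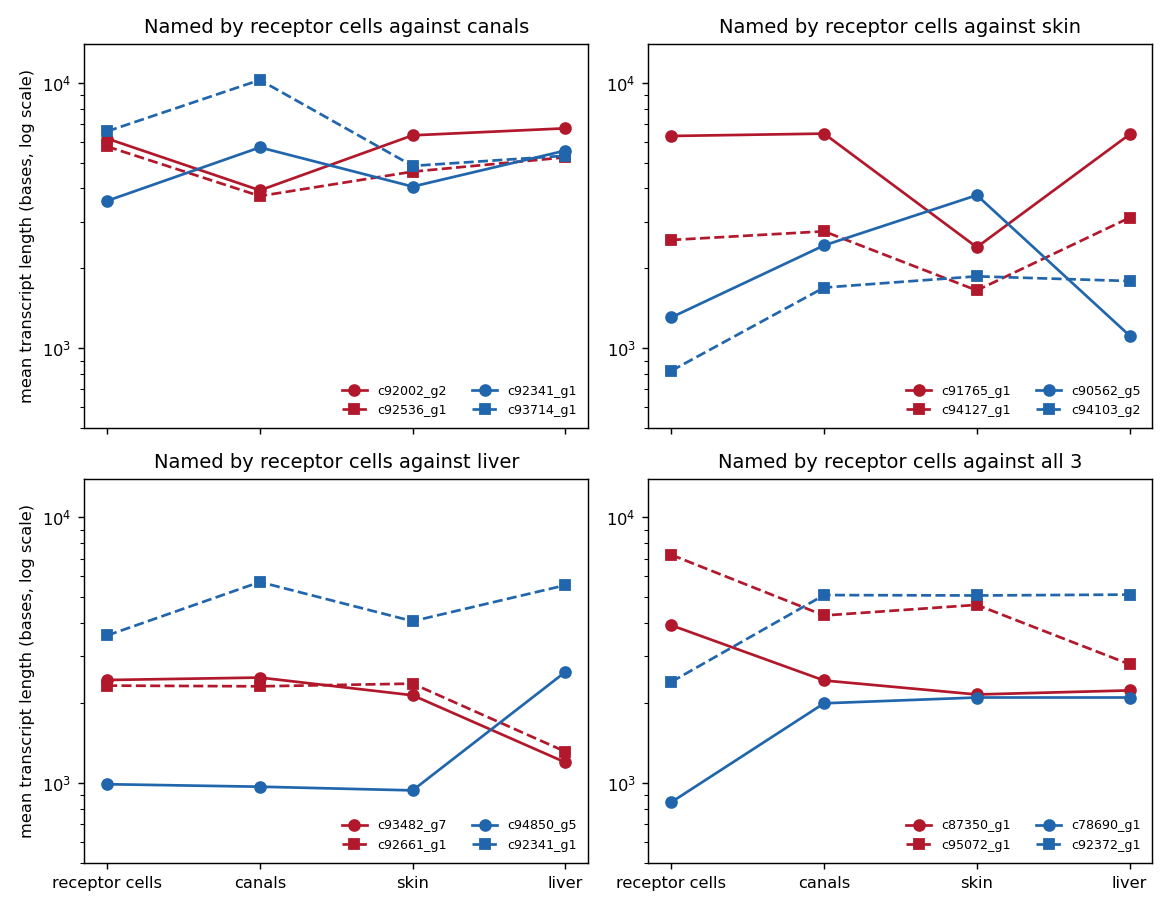
Mean transcript length (vertical, bases, log scale) in the 4 libraries (horizontal) of the named members, red for those longer and blue for those shorter in receptor cells than in the tissue of the panel. In the canal, skin and liver panels most lines bend at that tissue (c92661_g1 is at 1312 bases in liver and at 2312 to 2366 elsewhere), while in the last panel they bend at receptor cells (c78690_g1 is at 847 bases there and at 1995 to 2098 elsewhere).

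The tissues that took no part in a comparison lay on either side. Of 74 members shifted against canals with 100 reads everywhere, the lengths in skin and in liver were both nearer to receptor cells (on the log scale) in 38, both nearer to canals in 16 and divided in 20. Of 68 shifted against liver, canals and skin were both nearer to receptor cells in 34, both nearer to liver in 16 and divided in 18. For skin the larger number lay on the side of skin. Of 42 members, canals and liver were both nearer to receptor cells in 11, both nearer to skin in 16 and divided in 15. In the 135 members with 100 reads everywhere, receptor cells had the longest or the shortest mean in 68, while canals did in 78, skin in 52 and liver in 72, although the rule itself favours receptor cells.

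Pairs of tissues without receptor cells gave similar rates. By the same limits, canals and skin were shifted in 3.32% of 3945 assembled genes, canals and liver in 3.8% of 3000 and skin and liver in 2.84% of 3066, against 3.13% for receptor cells and canals, 2.09% for receptor cells and skin and 3.01% for receptor cells and liver. Receptor cells and skin were the pair with the lowest rate. The 3 pairs with canals had median absolute log2 length ratios of 0.0294 to 0.0319, and the 3 pairs without canals 0.0176 to 0.02. Mean fragment length, taken from the offset between length and effective length, was 219.86 bases for receptor cells, against 209.74 for canals, 229.55 for skin and 224.11 for liver, and the part of fragment length in this difference was not tested.

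Members had more assembled transcripts than the assembled genes compared. Their median number was 4.0, against 3.0 over all 5259 compared, and the share of members grew from 1.92% of 2450 with 2 transcripts to 4.77% of 1194 with 3, 7.83% of 664 with 4, 9.87% of 385 with 5 and 12% of 566 with 6 or more. More transcripts give more ways to shift, so the rule does not treat these classes alike. Members also sat more often in assembly clusters of several assembled genes (identifiers alike up to "_g"). Such clusters held 152 of the 262 members (58%) and 35.7% of all compared. The difference by number of transcripts was as follows. With 2 transcripts the members were 3.66% of 737 in shared clusters and 1.17% of 1713 alone, with 3 they were 6.3% of 413 and 3.97% of 781, and with 4 or more 13.6% of 727 and 6.64% of 888. The class of 4 or more pools different transcript numbers. Sequences of 1 cluster can be close copies between which reads are divided, and the part of this in the rates was not tested. Of the members named above, c93482_g7 sat in a cluster of 10 assembled genes, c90562_g5 of 9 and c94850_g5 of 8. The others named sat in clusters of 1 to 3. Many reads do not remove this limit.

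The rate was lower at higher depth against canals and skin, but did not fall steadily against liver. The share shifted against canals was 4.69% where the shallower library had 100 to 199 reads, 2.89% at 200 to 499, 1.91% at 500 to 999 and 1.28% at 1000 to 4999. Against skin it was 2.54%, 2.47%, 1.11% and 1.12% in the same classes, and against liver 3.16%, 3.04%, 2.35% and 3.49% (6 of 172 in the last). With 5000 reads or more in both libraries none was shifted, among 29, 27 and 10, which are too few to read a rate from. The deposited values carry no error for a length, so the counting error of a shift resting on 100 reads is unknown, and the part of depth was not tested.

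**Figure D4:**
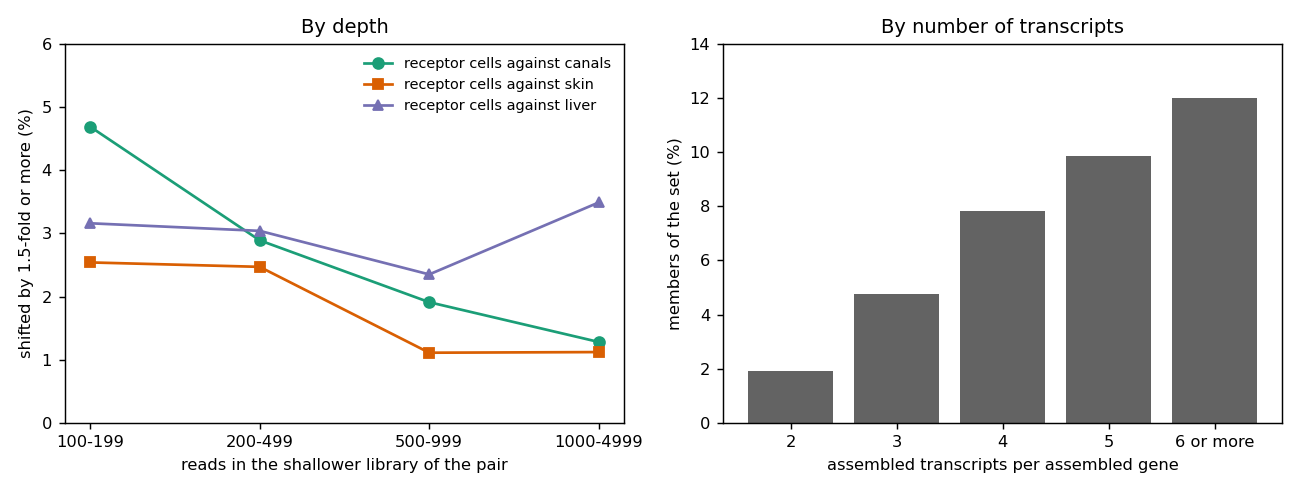
Left, share of assembled genes shifted by 1.5-fold or more (vertical, %) against the reads in the shallower library of the pair (horizontal), 1 line per comparison; against canals it falls from 4.69% to 1.28%, against liver it ends at 3.49%. Right, share of members (vertical, %) by number of assembled transcripts (horizontal), from 1.92% with 2 to 12% with 6 or more.

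Many members carried abundance on a very short transcript. The deposited effective length of a library follows the length by a fixed offset except where a short transcript takes part, and a departure of over 0.05 bases was seen in assembled genes of 1 transcript up to 513 bases long in receptor cells, against 480 in canals, 562 in skin and 531 in liver. By this sign, 164 members (62.6%) held abundance on such a transcript in at least 1 library with 100 reads, against 11.9% of all compared. In receptor cells it was seen in 98 of 262 members (37.4%), against 7.53% of those compared, in canals in 25% against 4.86%, in skin in 33% against 7.34% and in liver in 38% against 6.44%. Members were chosen by their spread of length and had more transcripts. Their excess over all compared is therefore not independent of the rule and is given as a description. The sign does not give how much abundance lay on the short transcript. A short transcript lowers the mean by construction, and it was more often seen in the tissue with the shorter mean. Of the 72 members shorter in receptor cells than in canals, 46 showed it in receptor cells and 8 in canals. Of the 71 longer in receptor cells than in canals, 12 showed it in receptor cells and 35 in canals. In 25 and 35 of these members it was seen in neither library.

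No shift had a whole-number length at both ends, as a complete exchange of 1 transcript for another would. In 0 of the 143, 91 and 95 shifts against canals, skin and liver were both lengths whole. Over all compared, different whole-number lengths at both ends were also rare, at 34 of 4565, 4 of 4362 and 7 of 3154 in the same order. The 0 is near that background, and an incomplete exchange would not show in this way, so nothing is read from it. Receptor cells alone had a whole-number length in 12, 4 and 5 of the shifts, and the other tissue alone in 16, 14 and 9. Whole-number lengths had these shares in members (7.63% in receptor cells, 10.3% for canals, 12.4% for skin, 9.64% for liver) and these in all compared (8.54%, 11.8%, 10% and 9.73% in the same order). For 20 members the same whole-number length in 2 or more libraries, with a mean 1.5-fold or more shorter in another, sets a lower limit on the abundance moved to shorter transcripts. The limit ran from 35.6% to 66.0% for the 9 members short in receptor cells, from 43.1% to 78.0% for 7 short in canals, from 41.3% to 44.5% for 2 short in skin and from 53.3% to 88.4% for 3 short in liver, with 1 member counted under receptor cells and skin. These limits hold for the authors' abundance estimates and leave out their error.

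An assembly cluster gave 2 members to the set in 2 cases, noticed after the values were seen. In cluster c89610, mean length of c89610_g2 was 1883.00 bases in receptor cells, against 571 in canals, 1883.00 in skin and 1883.00 in liver, from 147, 116, 908 and 703 reads in that order. Canals alone were short. Mean length of c89610_g6 was 941 bases in receptor cells, against 1770 in canals, 1734 in skin and 1766 in liver, but the 4815 reads in receptor cells stood against 42 in canals, 761 in skin and 33 in liver, so only the shift against skin met the rule. In cluster c92117, c92117_g1 was 2572 bases in receptor cells and 1546 in canals, and c92117_g2 was 3321 bases in receptor cells and 2171 in canals.

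Read levels, which the rule used only through its minimum of 100 reads, lay within 2-fold for most members in each comparison with TMM factors, least often for liver. Levels are reads relative to the library size after scaling with TMM factors, in the unit CPM, and each difference is one of log2(CPM + 0.5). Within 2-fold of each other lay 97 of 143 members (67.8%) for receptor cells and canals, against 70.7% of all compared, 60 of 91 (65.9%) for skin, against 68.5%, and 51 of 95 (53.7%) for liver, against 66.5%. These shares depend on the scaling. With library totals the median log2 difference over all compared was 1.07 for liver, in place of -0.2 with TMM factors. The shares within 2-fold were not counted on that scaling. In whole tissue, fewer cells of a type and less RNA per cell cannot be told apart.

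In the comparison with canals, 8 members (5.59%) had a receptor-cell level at least 4-fold higher, against 2.8% of all compared, and 13 (9.09%) were at least 4-fold lower, against 5.39%. For skin the counts were 6 higher (6.59%, against 3.12%) and 11 lower (12.1%, against 6.4%), and for liver 4 higher (4.21%, against 1.81%) and 18 lower (18.9%, against 9.1%). With TMM factors the share of members was above that of all compared on both sides, by counts of a few assembled genes that no replicate supports. The split between higher and lower depended on the scaling. With library totals the comparison with canals had 11 members higher (7.69%), against 5.72% of all compared, and 6 lower (4.2%), against 2.69%. For skin they were 8 higher (8.79%, against 5.09%) and 6 lower (6.59%, against 4.31%). For liver, 14 higher (14.7%) lay at the background of 14.9%, and 8 lower (8.42%) stood against 2.73%. On that scaling the median log2 difference over all compared was 0.34, 0.28 and 1.07 for the 3 tissues, in place of -0.2, -0.12 and -0.2 with TMM factors. With the authors' TPM, which also divides by the length that chose the members, the counts were 18 higher (12.6%, against 6.4%) and 7 lower (4.9%, against 2.17%) for canals, 9 (9.89%, against 5.27%) and 5 (5.49%, against 3.81%) for skin, and 17 (17.9%, against 12.7%) and 14 (14.7%, against 3.04%) for liver.

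How the read levels of longer and shorter members were ordered depended on the scale. In each comparison the median difference in read level was higher for the members longer in receptor cells than for the shorter ones. Per base, with reads divided by the library's own effective length, the order was reversed in each comparison. For skin, 25 of 41 longer and 19 of 50 shorter members had the higher level in receptor cells (TMM factors). Of 71 members longer in receptor cells than in canals, 4 passed 4-fold upward in reads and 4 downward, with a median log2 difference of -0.12, and of 72 shorter ones 4 passed upward and 9 downward, with a median of -0.26. For skin the medians were 0.34 for the longer and -0.56 for the shorter, and for liver -0.39 and -0.56. Per base, the medians for longer and shorter were -1.26 and 0.74 for canals, -0.88 and 0.68 for skin, and -1.29 and 0.36 for liver. A longer transcript gives more reads per molecule, and the scale per base divides by a length close to the one that chose the members. Neither order is independent of the rule, so nothing is read from either. The lowest difference in read level was that of a member shorter in receptor cells than in liver, at -8.02. Among the named, c94850_g5 had 62.4 CPM in receptor cells and 2540 in liver, a 40.7-fold difference with TMM factors (exact 95% interval 38.3 to 43.2, counting error only). In contrast c93714_g1 had 131 CPM in receptor cells and 138 in canals, a ratio of 0.954 (0.896 to 1.02), while its length differed by 1.56-fold. Neither interval covers a change of scaling or how reads were divided within an assembly cluster. The TMM factor was 1.476 for receptor cells, 1.01 for canals and 0.6041 for liver. Without these factors the 40.7-fold difference would be smaller and the ratio of 0.954 higher. The reads of c93714_g1 were 2375 in receptor cells and 1712 in canals, in libraries of 12240037 and 12303108 reads. Its near-equal level therefore rests on the TMM factors. Over all compared with liver, the median log2 difference moved from -0.2 with TMM factors to 1.07 with library totals.

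**Figure D5:**
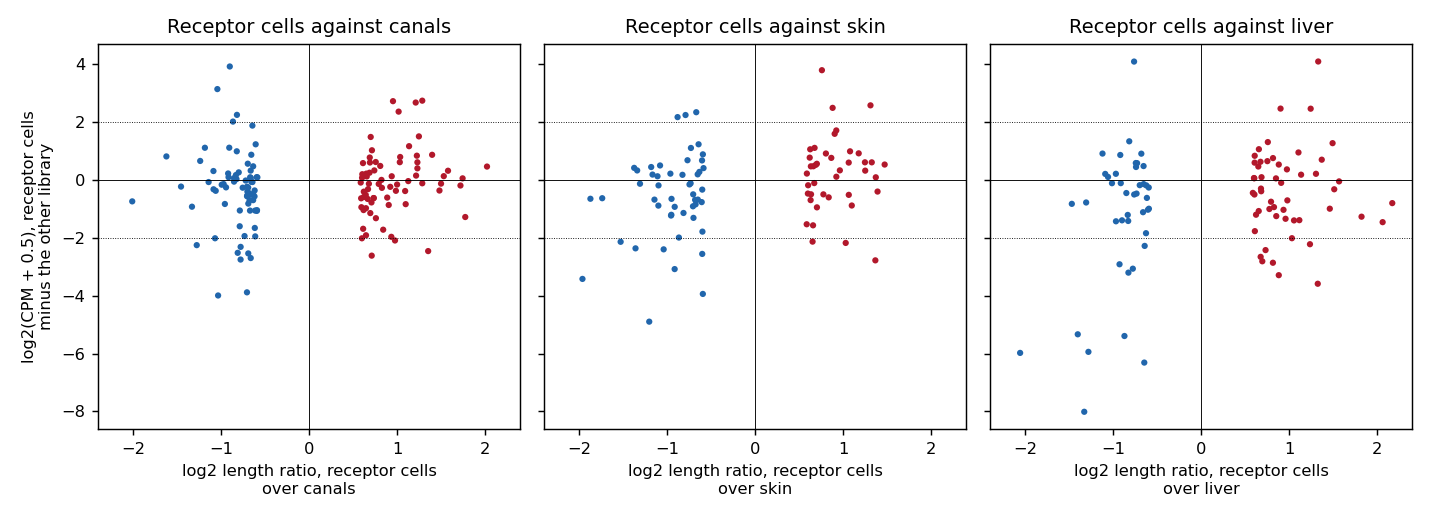
Difference of log2(CPM + 0.5) between receptor cells and the other library (vertical) against the log2 ratio of mean lengths (horizontal) for the 143, 91 and 95 members of the comparisons with canals, skin and liver, red for longer and blue for shorter in receptor cells; dotted lines mark 4-fold. Points of both colours lie on both sides of 0 in each panel, and the lowest blue point, at -8.02, is in the liver panel.

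A length shift changes how a level is read. Per base, reads are divided by the library's own effective length, as in TPM, so the same counts give another ratio. The gap between both scales follows the ratio of effective lengths, which are shorter than the lengths, so it can exceed the length ratio. A gap in members was thus built in by the rule, and its size is given as a description. That gap had a median of 0.912 (log2) over members of the comparison with canals and 0.038 over all compared, 0.943 and 0.024 for skin, and 0.971 and 0.022 for liver, and it reached 3.28 in a member of the comparison with liver. The side of no difference on which a member lay changed for 50 of 143 (35%), 30 of 91 (33%) and 28 of 95 (29.5%), against 5.32%, 4.06% and 3.9% of all compared. More changes of side in members were likewise built in by the rule, and nothing is read from the excess. For c78690_g1, receptor cells had 0.915 times the reads of skin (0.791 to 1.06) but 2.71 times the reads per base. For c91765_g1, they had 0.758 times the reads of skin (0.697 to 0.824) and 0.271 times the reads per base. These ratios use TMM factors, and the intervals leave out the choice of scaling. Over all compared with skin, the median log2 difference was -0.12 with TMM factors and 0.28 with library totals.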

How the data were processed

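Values are from the authors' deposited tables of 186064 assembled genes for 4 libraries, 1 per tissue. Per the submitters' processing notes they were made with RSEM 1.1.17; which assembler and aligner were used is not given in the sources used here. Per the file headers, the deposited expected counts estimate how many reads each assembled gene took, without normalization, and were rounded here. The deposited TPM values, so named per the file headers, served as an alternative; the deposited FPKM values were not used. The deposited length and effective length columns are in bases. Lengths were equal between libraries for assembled genes of 1 transcript. For assembled genes of several transcripts with 0 reads in 2 or more libraries, lengths were equal there in 5385 of 5386 (closer than 0.011 bases), as a plain mean would be.

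Python 3.11.15, pandas 2.3.3 and SciPy 1.17.1 were used, with edgeR 4.0.16 (R 4.3.3) for TMM factors over the 36326 assembled genes with at least 10 reads in 1 library. The factor of the receptor-cell library was 1.476, that of canals 1.01, of skin 1.111 and of liver 0.6041. DESeq2 1.42.0 gave alternative size factors. The length rule was run on simulated assembled genes with large known shifts, equal depth in every library and no error in assigning reads. The level rule was run on simulated counts with a large known change. Both settings are easier than the data, so they check the code and give no error rates for the members. Intervals are exact (Clopper-Pearson, 95%) and cover counting error only, since reads without molecular identifiers are not independent molecules. Members, lists and rules were chosen with earlier results of these data known. Named assembled genes are the 2 per direction and comparison with the largest length ratio among those with 1000 reads in both libraries, and the 2 per direction in which receptor cells stood farthest from all others. No gene lists could be applied without gene names.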

Additional observations from a re-analysis of the deposited data

How the results depend on the processing

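All counts below depend on the limits set, and 76 of 115 alternative values moved by over 1.5 times. With a looser length ratio of 5 to 4 the set held 714 members. Longer and shorter in receptor cells were then 235 and 184 for canals, 142 and 147 for skin and, for liver, 132 and 114. Receptor cells then stood apart in 37, canals in 77, skin in 38 and liver in 64. With a ratio of 2 these values were 85, then 26 and 14, 14 and 17, 18 and 10, and 3, 9, 2 and 7. With a minimum of 50 reads they were 434, then 132 and 107, 69 and 84, 90 and 76, and 32, 53, 18 and 40. With 200 reads they were 148, then 35 and 36, 26 and 28, 30 and 23, and 3, 11, 4 and 16. With 1000 reads they were 16, then 3 and 3, 3 and 2, 3 and 3, and 0, 0, 0 and 2. With the effective length in place of the length, 339 members resulted, with 98 and 90, 62 and 65, 65 and 50, and 16, 40, 12 and 31. With exactly 2 transcripts they were 47, then 12 and 15, 6 and 11, 6 and 8, and 3, 4, 1 and 3. With canals left out, chosen after seeing the data, the set held 162 and receptor cells stood apart in 24. The stricter limits kept subsets of the 262 members, and the looser ones held all 262.

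For members at least 4-fold higher and lower in reads, library totals gave 11 and 6 for canals (over all compared 261 and 123), 8 and 6 for skin (222 and 188) and 14 and 8 for liver (470 and 86), where the share of members higher, 14.7%, was no larger than that of all compared, 14.9%. TPM gave 18 and 7 (292 and 99), 9 and 5 (230 and 166), and 17 and 14 (399 and 96). DESeq2 size factors (7 and 17 for canals), a pseudocount of 0.1 or 2, and no filter kept all counts within 1.5 times. Where a setting changes the limit or the samples, its construction accounts for the change, and elsewhere the cause was not tested. No paired analysis was possible because the tissues have no replicates, so none could be left out either. Depth left 14655 assembled genes with several transcripts without the reads to be compared.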
